A study of Mus musculus with 6 samples.

Results

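The metallothioneins of the mouse colon tumours were the genes Mt1 (ENSMUSG00000031765), Mt2 (ENSMUSG00000031762), Mt3 (ENSMUSG00000031760) and Mt4 (ENSMUSG00000031757), found by symbol as 4 of the 31053 features of the count matrices. They were chosen by their high levels in the epithelium of the Apc ICI tumours and by the trace of Mt3 and Mt4 in immune cells, so those values are a description with no test. The study profiled whole colon tumours of male mice by droplet single-cell RNA sequencing (10x Genomics 3′ chemistry) at clinical endpoint. Dead cells were sorted out with DAPI, and each of the 2 groups has 3 libraries. AOM PN tumours came from VilcreER P53fl/fl Notch1Tg mice, in which a tamoxifen-dependent Cre under the villin promoter acts in the intestinal epithelium to delete Trp53 and switch on a Notch1 transgene. These mice received 2 mg tamoxifen intraperitoneally and, from 4 days later, the carcinogen azoxymethane (AOM) at 10 mg/kg weekly for 6 weeks. Apc ICI tumours came from VilCreER Apcfl/fl mice whose colonic submucosa was injected with 4-hydroxytamoxifen (70 µl at 100 µM), with no AOM. All 6 tumours share the villin-driven Cre. The groups differ in the deleted gene, the transgene, the carcinogen and the route of induction together, so these cannot be told apart. The mice's ages are not given in the labels, which also do not say that each library is a different animal, so p-values measure only the spread between these libraries.

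Metallothioneins are small cysteine-rich proteins that bind zinc and copper ions in the cytoplasm. Mt1 and Mt2 are made in most tissues and are induced together by zinc, cadmium, glucocorticoids and oxidative stress; the zinc-sensing factor MTF1 acts through short metal response elements in their promoters. Mt3 is best known from neurons and astrocytes of the brain, where it was described as growth inhibitory factor, and Mt4 from stratified squamous epithelium such as that of the tongue and skin.

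The 4 genes lie on the forward strand of chromosome 8, in the order Mt4, Mt3, Mt2, Mt1, within 43124 bases (RefSeq, build GRCm38.p6, the same assembly as mm10). Mt4 spans chr8:94137204-94139031, Mt3 chr8:94152607-94154148, Mt2 chr8:94172618-94173567 and Mt1 chr8:94178883-94180327. The gaps are 13575 bases between Mt4 and Mt3, 18469 between Mt3 and Mt2 and 5315 between Mt2 and Mt1. Their promoters are shown because the pairs Mt1 with Mt2 and Mt3 with Mt4 had the most similar levels across cell classes. Each is 250 bases of RefSeq sequence (GRCm38.p6, forward strand, 5′ to 3′) that ends at the base before the annotated start: Mt4 at chr8:94136954-94137203, Mt3 at chr8:94152357-94152606, Mt2 at chr8:94172368-94172617 and Mt1 at chr8:94178839-94179088. Capitals mark the core of the metal response element, searched as TGCACNC and TGCGCNC on both strands.
Mt4: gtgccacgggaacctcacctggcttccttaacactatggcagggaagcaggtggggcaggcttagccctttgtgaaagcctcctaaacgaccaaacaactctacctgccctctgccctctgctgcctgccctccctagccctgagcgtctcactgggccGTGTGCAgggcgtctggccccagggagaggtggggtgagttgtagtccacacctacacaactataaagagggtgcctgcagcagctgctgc
Mt3: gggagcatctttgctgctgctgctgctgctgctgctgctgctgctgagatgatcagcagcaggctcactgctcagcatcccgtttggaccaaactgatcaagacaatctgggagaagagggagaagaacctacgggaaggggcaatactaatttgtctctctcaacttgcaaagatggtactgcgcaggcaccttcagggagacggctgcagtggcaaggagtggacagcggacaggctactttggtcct
Mt2: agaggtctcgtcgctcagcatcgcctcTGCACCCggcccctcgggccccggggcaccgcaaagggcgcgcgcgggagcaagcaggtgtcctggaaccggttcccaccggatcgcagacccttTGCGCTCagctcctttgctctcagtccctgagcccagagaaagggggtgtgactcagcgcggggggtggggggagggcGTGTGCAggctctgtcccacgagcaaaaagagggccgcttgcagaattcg
Mt1: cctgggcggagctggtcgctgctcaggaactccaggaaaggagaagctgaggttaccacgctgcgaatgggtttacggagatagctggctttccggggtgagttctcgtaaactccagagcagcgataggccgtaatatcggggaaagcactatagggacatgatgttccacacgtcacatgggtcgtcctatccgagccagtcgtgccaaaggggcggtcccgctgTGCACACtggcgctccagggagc
Mt2 held 3 matches, at bases 223 to 217 and 128 to 122 before the start on the forward strand and 50 to 44 on the reverse strand. Mt1 held 1 match on the forward strand, at bases 23 to 17, and Mt4 held 1 on the reverse strand, at bases 91 to 85. These letters did not occur in these bases of Mt3. In windows of 300 bases, which also take in bases after the start that are not shown, the count was 1 for Mt4, 1 for Mt3, 4 for Mt2 and 3 for Mt1. Whether Mt3 holds a match thus depends on the window. Of 32851 mouse promoter windows of 250 bases, 21.4% held at least 1 match and 1.26% held at least 3; of the windows of 300 bases, 25.7% held at least 1 and 1.97% at least 3. The start used for Mt1 lies inside its gene record, and GENCODE lists further starts 122 and 152 bases downstream for Mt1, 46 and 242 for Mt2 and 139 for Mt3, so bases upstream of those starts were only partly searched.

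Total UMI counts (unique molecular identifiers, one per captured transcript) were 87107277 to 98583066 in AOM PN libraries and 59309093 to 60075436 in Apc ICI libraries. Haemoglobin transcripts took 1.87 to 29.0% of the UMIs in AOM PN libraries and 21.4 to 61.4% in Apc ICI libraries, and were left out of every level below. After filters on genes, mitochondrial share and doublets, 30286 AOM PN and 16716 Apc ICI barcodes remained; 450 of 64053 distinct barcodes (0.703%) occurred in more than 1 library. Cells were placed in classes by UMIs of fixed marker genes, and counts were summed per library and class, so that fewer expressing cells and less RNA per cell cannot be told apart in a sum. Epithelial cells numbered 999, 630 and 464 in AOM PN libraries 1 to 3, against 557, 1013 and 704 in Apc ICI libraries 1 to 3. Their median depth was 1833, 1812 and 1636 UMIs in AOM PN libraries, against 7211, 8982 and 4276 UMIs in Apc ICI libraries. Epcam, the epithelial adhesion molecule and one of the gate's markers, was at 2598 to 3686 CPM (counts scaled to a common library size by the TMM method) in AOM PN and 2524 to 2861 CPM in Apc ICI libraries. T and NK cell markers reached 1.17 to 2.84% of their level in T/NK cells in AOM PN epithelial sums and 0.176 to 0.271% in Apc ICI epithelial sums. Trp53 was at 65.5 ± 5.07 CPM in AOM PN and 144 ± 8.57 CPM in Apc ICI epithelial cells (SD, n = 3 each). Notch1 was at 54.8 ± 10.3 CPM in AOM PN and 33.7 ± 2.65 CPM in Apc ICI, and Apc was at 68.2 ± 11.7 CPM in AOM PN and 74.0 ± 3.53 CPM in Apc ICI (SD, n = 3 each). The deleted exons are not given and 3′ tags may lie outside them, so these levels do not check the labels.

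Mt3, the brain-type member, was low in AOM PN epithelium and high in Apc ICI epithelium. It stood at 408, 65.4 and 117 CPM in AOM PN libraries 1 to 3, against 2305, 1453 and 1626 CPM in Apc ICI libraries 1 to 3. Mt4, the squamous-type member, stood at 256, 33.1 and 53.6 CPM in AOM PN libraries and at 1788, 1957 and 1751 CPM in Apc ICI libraries. For both genes the groups did not overlap, and AOM PN library 1 was the highest of its group by more than the other 2 libraries differed from each other. Mt3 averaged 197 ± 185 CPM in AOM PN and 1795 ± 450 CPM in Apc ICI (SD, n = 3 each). Mt4 averaged 114 ± 123 CPM in AOM PN and 1832 ± 110 CPM in Apc ICI (SD, n = 3 each). The fitted difference, AOM PN over Apc ICI, was -3.18 on the log2 scale for Mt3 and -3.97 for Mt4. Without AOM PN library 1 it was -4.32 for Mt3 and -5.44 for Mt4.

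**Figure D1:**
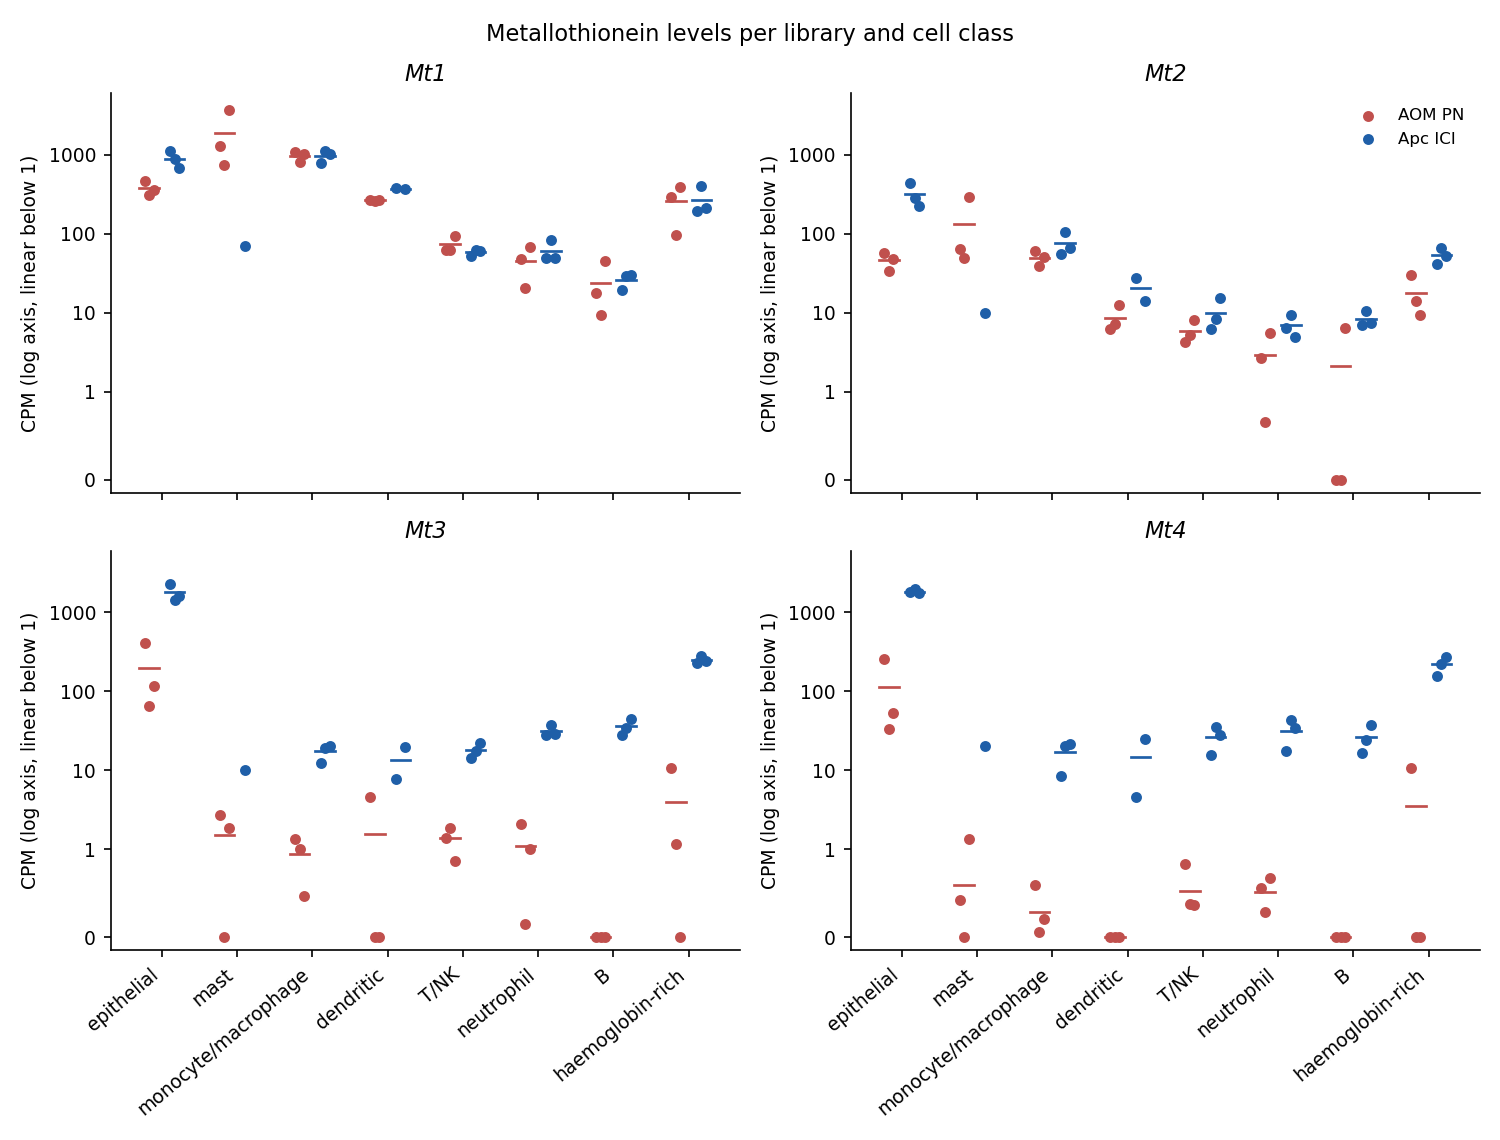
Level of each metallothionein gene in each cell class, in CPM without haemoglobin genes on a log scale, with 1 point per library and AOM PN left of Apc ICI. Mt3 and Mt4 stand highest in Apc ICI epithelium, between 1453 and 2305 CPM, while Mt1 in monocytes and macrophages lies between 796 and 1127 CPM in all 6 libraries.

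Mt1 and Mt2, the widely made members, were also lower in AOM PN epithelium, by smaller factors. Mt1 stood at 472, 313 and 362 CPM in AOM PN libraries 1 to 3, against 1112, 891 and 689 CPM in Apc ICI libraries 1 to 3. Mt2 stood at 57.0, 33.8 and 48.9 CPM in AOM PN libraries, against 441, 283 and 229 CPM in Apc ICI libraries. The groups did not overlap for either gene. The share of all genes without such overlap was not counted, in epithelium or in other classes. The fitted log2 difference was -1.23 for Mt1 and -2.77 for Mt2. The balance of the pair differed too: the epithelium held 8.29, 9.25 and 7.40 Mt1 UMIs per Mt2 UMI in AOM PN libraries, against 2.52, 3.15 and 3.01 in Apc ICI libraries. As background, 17.2% of the 12810 genes tested in epithelial cells were higher in AOM PN and 15.2% were lower (edgeR's quasi-likelihood test, Benjamini-Hochberg adjusted p under 0.05). Nothing is read from the members against it, because they were chosen in this contrast.

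Depth differed between the groups' epithelial cells, so each library's cells were split by depth into 3 bins of equal number. Levels in bins and subsets are CPM over the bin's or subset's own UMIs, with no TMM scaling. In the lowest bin of Apc ICI libraries, where the median cell had 1043 to 1552 UMIs, Mt3 was at 1341 CPM. In the highest bin of AOM PN libraries, with medians of 5904 to 17331 UMIs, it was at 202 CPM. Mt4 was at 118 CPM in the highest AOM PN bin and at 1160 CPM in the lowest Apc ICI bin. Mt1 was at 389 CPM in the highest AOM PN bin and 582 CPM in the lowest Apc ICI bin. Mt2 was at 48.8 CPM in the highest AOM PN bin and 205 CPM in the lowest Apc ICI bin. In these group means the shallowest Apc ICI cells held more of all 4 transcripts per UMI than the deepest AOM PN cells.

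Mt3 and Mt4 sat in a part of the epithelial cells rather than evenly over them. Every cell was thinned to 1000 UMIs, which left out 559 AOM PN and 293 Apc ICI epithelial cells as too shallow. Mt3 was seen in 3.18 ± 2.84% of AOM PN cells and 45.4 ± 1.94% of Apc ICI cells (SD, n = 3 libraries each). Unthinned, the shares were 4.06% in AOM PN and 60.4% in Apc ICI. Mt4 was seen in 2.40 ± 1.75% of thinned AOM PN cells and 32.5 ± 6.71% of thinned Apc ICI cells, against 3.01% in AOM PN and 47.9% in Apc ICI unthinned. Cells with at least 3 UMIs of Mt3 and Mt4 together numbered 34 of 722 (4.71%), 3 of 475 (0.632%) and 4 of 337 (1.19%) in AOM PN libraries 1 to 3. In Apc ICI libraries 1 to 3 they numbered 170 of 488 (34.8%), 321 of 902 (35.6%) and 200 of 591 (33.8%). The Apc ICI share therefore varied by less than 2 percentage points, while that of AOM PN library 1 was several times that of the other AOM PN libraries. Cells with no UMI of either gene made up 92.5, 98.9 and 95.8% of the thinned cells in AOM PN libraries and 49.4, 42.9 and 50.4% in Apc ICI libraries.

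**Figure D2:**
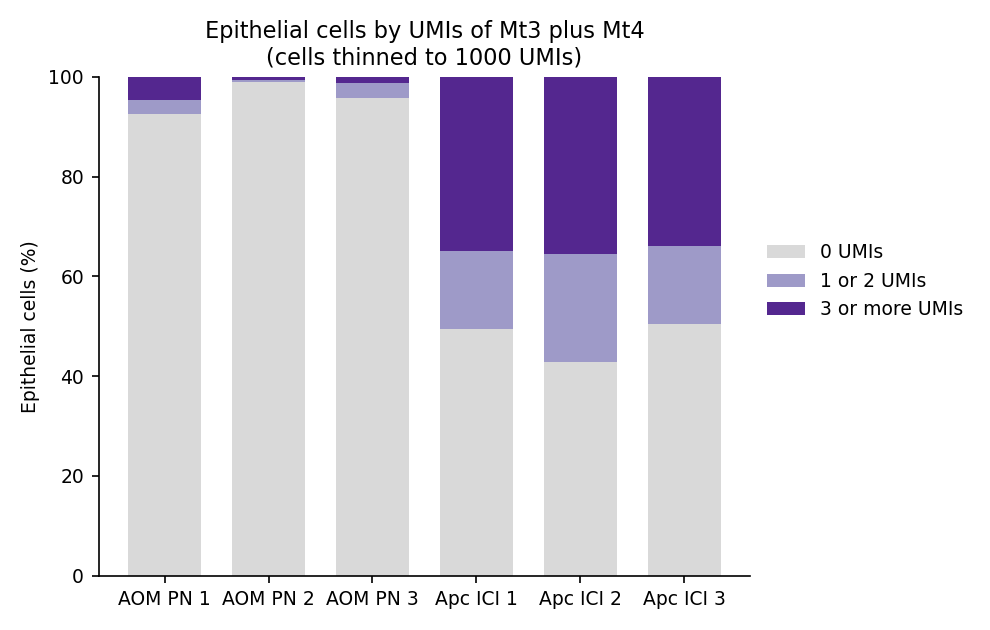
Share of epithelial cells, in percent, by the number of Mt3 and Mt4 UMIs after thinning each cell to 1000 UMIs, for each library. Cells with 3 or more make up 0.632 to 4.71% in AOM PN libraries and 33.8 to 35.6% in Apc ICI libraries.

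The cells with 3 or more UMIs were picked by this count itself, so a high share of it is partly set by the choice. They held 93.8, 96.6 and 65.8% of the Mt3 and Mt4 UMIs in AOM PN libraries and 94.4, 91.4 and 93.0% in Apc ICI libraries. They were also the deeper cells before thinning, with medians of 8853, 4879 and 4018 UMIs in AOM PN libraries against 3339, 2480 and 2207 UMIs in cells with none. In Apc ICI libraries the medians were 27309, 23871 and 11037 UMIs in such cells against 5784, 9499 and 5223 UMIs in cells with none. The part of depth in this split was not tested. None of the AOM PN barcodes with 3 or more occurred in an Apc ICI library. Per cell, the rank correlation of Mt3 with Mt4 in thinned cells was 0.583, 0.578 and 0.234 in AOM PN libraries and 0.554, 0.491 and 0.567 in Apc ICI libraries. That of Mt1 with Mt3 was 0.019, 0.046 and -0.026 in AOM PN libraries and 0.257, 0.225 and 0.15 in Apc ICI libraries. These values are descriptions over 337 to 722 AOM PN and 488 to 902 Apc ICI cells that share a library. Cells with both Mt3 and Mt4 numbered 22, 2 and 2 in AOM PN libraries 1 to 3. In Apc ICI libraries 1 to 3 they numbered 112, 256 and 148. The Mt3 with Mt4 values of AOM PN libraries 2 and 3 thus rest on very few cells. Mt1 averaged 1.19, 1.08 and 0.715 UMIs per thinned cell in the Apc ICI cells with 3 or more Mt3 and Mt4 UMIs, against 0.639, 0.584 and 0.443 UMIs in Apc ICI cells with none.

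Within the epithelium, subsets were gated by marker genes, and a cell could enter more than one. In stem-gated cells Mt3 was at 903, 8.68 and 255 CPM in AOM PN libraries 1 to 3, against 2513, 1618 and 1705 CPM in Apc ICI libraries 1 to 3. AOM PN library 1 supplied 132 stem-gated cells, and libraries 2 and 3 supplied 54 and 51 cells. The AOM PN mean of 389 ± 462 CPM rests mainly on library 1. In cycling cells, gated by cell-division genes, Mt3 averaged 16.1 ± 13 CPM in AOM PN and 920 ± 179 CPM in Apc ICI. In cells of none of the subsets it averaged 122 ± 63.4 CPM in AOM PN and 2023 ± 578 CPM in Apc ICI (SD, n = 3 each). Cycling cells thus held less Mt3 per UMI than stem-gated cells and cells of none of the subsets in each of the 6 libraries. In AOM PN library 2 the cycling and stem-gated values, 6.15 and 8.68 CPM, rest on only 11 UMIs each. Mt4 averaged 8.09 ± 6.43 CPM in cycling AOM PN cells and 1237 ± 349 CPM in cycling Apc ICI cells. In stem-gated cells it averaged 231 ± 299 CPM in AOM PN and 2076 ± 222 CPM in Apc ICI. Secretory cells passed the minimum of 20 cells in Apc ICI libraries alone, where Mt3 was at 1199, 976 and 209 CPM and Mt4 at 788, 1776 and 78.8 CPM. Apc ICI library 3 had the fewest such cells, 26. Cycling cells of Apc ICI libraries 1 to 3 held 754, 1109 and 897 CPM of Mt3. Secretory cells thus lay above cycling cells in library 1 and below them in libraries 2 and 3. Absorptive cells passed the minimum of 20 cells in AOM PN libraries 1 and 2 alone, 59 cells in all, with no UMI of Mt3 or Mt4. The means of Mt1 ran from 268 to 430 CPM over the AOM PN subsets and from 902 to 1045 CPM over the Apc ICI subsets.

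**Figure D3:**
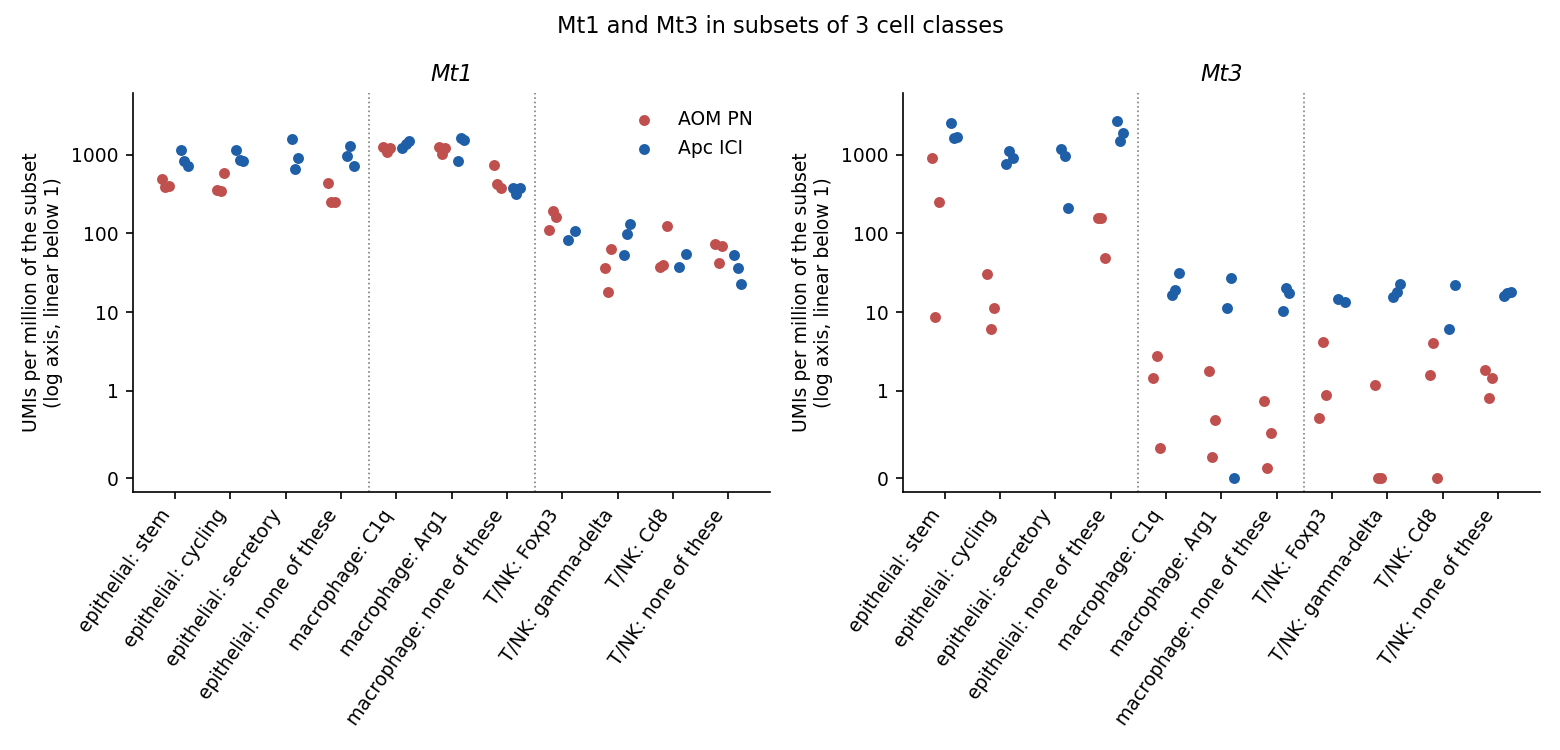
Levels of Mt1 and Mt3 in gated subsets of epithelial cells, of monocytes and macrophages and of T/NK cells. Values are CPM over the subset's own UMIs on a log scale, with 1 point per library and AOM PN left of Apc ICI. Mt3 in cycling AOM PN cells lies between 6.15 and 30.8 CPM, against 754 to 1109 CPM in cycling Apc ICI cells.

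Markers of the tissues in which Mt3 and Mt4 are usually made were measured in the same epithelial sums. The 10 squamous genes summed to 152 to 223 CPM in AOM PN epithelium, with 7 of 10 seen in each library, and to 63.5 to 138 CPM in Apc ICI epithelium, with 7 to 9 of 10 seen. Krt5, the keratin of basal squamous cells, had no UMI in any library. Krt14, its partner, was at 85.6 to 148 CPM in AOM PN and 4.57 to 12.1 CPM in Apc ICI. Krt6a (5.64 to 18.1 CPM) and Dsg3 (2.82 to 17.4 CPM) were also higher in AOM PN, against at most 3.01 and 1.32 CPM in Apc ICI. Krt4 and Krt10 went the other way. Krt4 was at 0 to 0.569 CPM in AOM PN and 9.38 to 11.4 CPM in Apc ICI. Krt10 was at 8.93 to 12.9 CPM in AOM PN and 15.5 to 17.3 CPM in Apc ICI. Krt13 and Sprr1a overlapped between the groups, and Krt1 and Trp63 were at most 0.470 CPM. The 8 glial and neuronal genes summed to 1.71 to 5.64 CPM in AOM PN and 5.56 to 10.6 CPM in Apc ICI epithelium. Gfap of astrocytes and enteric glia was at 0 in all 6 libraries; the part of such cells in the Mt3 level was not tested.

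A trace of Mt3 and Mt4 was counted in immune cells of every class with enough cells in Apc ICI tumours. In neutrophils Mt3 was at 2.11, 0.145 and 1.01 CPM in AOM PN libraries 1 to 3, against 28.2, 37.8 and 29.2 CPM in Apc ICI libraries 1 to 3. Mt4 in neutrophils was at 0.562, 0.290 and 0.673 CPM in AOM PN libraries and at 17.8, 44.0 and 34.0 CPM in Apc ICI libraries. Monocytes and macrophages held 1.35, 1.01 and 0.469 CPM of Mt3 in AOM PN libraries and 12.5, 19.2 and 20.3 CPM in Apc ICI libraries. T/NK cells held 1.39, 1.88 and 0.864 CPM of Mt3 in AOM PN libraries and 14.4, 17.5 and 22.5 CPM in Apc ICI libraries. The 6 libraries split by group in each of these classes, as they did in epithelium. The share of all genes that split so was not counted, and the members were chosen partly by these traces, so the split is a description. In B cells neither gene had a UMI in 203 AOM PN cells, which by the limit of 3 counts allows up to 4.81 CPM and up to 1.48% of cells with a UMI; it sets no limit on cells that make the transcript. With the summed Apc ICI level taken as counted, from 39 Mt3 and 26 Mt4 UMIs, the AOM PN limit was 6.62-fold lower for Mt3 and 4.41-fold lower for Mt4. Mt4 also had no UMI in 237 AOM PN dendritic cells, a limit 12.5-fold below the Apc ICI level. That Apc ICI level rests on 17 UMIs, 14 of them from library 2. These limits cover counting error in AOM PN only, not that of the Apc ICI counts or the spread between libraries.

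Set against the epithelium of the same library, the trace was small in neutrophils. Neutrophils held 0.52, 0.22 and 0.86% of the epithelial Mt3 level in AOM PN libraries and 1.22, 2.60 and 1.80% in Apc ICI libraries. Epithelial transcripts outside the gate, counted where epithelium held at least 100 UMIs, had medians of 1.07, 0.587 and 0.608% in AOM PN neutrophils (6, 5 and 5 transcripts) and 1.60, 2.70 and 1.56% in Apc ICI neutrophils (7 transcripts). Mt4 in neutrophils was at 0.22, 0.88 and 1.26% of the epithelial level in AOM PN libraries and 1.00, 2.25 and 1.94% in Apc ICI libraries, within the 0 to 4.00% spanned by those 7 transcripts in Apc ICI. Some AOM PN values in other classes lay above the highest, or only above the median, of the transcripts outside the gate. Mt3 in monocytes and macrophages of AOM PN library 2 was at 1.55%, from 17 UMIs, against a highest of 0.314%. Mt4 in mast cells of AOM PN library 3 was at 2.53%, from 27 UMIs, against a highest of 2.05%. Mt3 in T/NK cells of AOM PN library 2 was at 2.87%, from 10 UMIs, against a median of 0.236% and a highest of 8.99%. The ratio of Mt3 to Mt4 UMIs was 1.59, 1.98 and 2.18 in AOM PN epithelium and 1.29, 0.74 and 0.93 in Apc ICI epithelium. In neutrophils it was 3.75, 0.5 and 1.5 in AOM PN libraries, from 26 Mt3 and 14 Mt4 UMIs in all, and 1.58, 0.86 and 0.86 in Apc ICI libraries. In monocytes and macrophages it was 2.29, 17 and 2.25 in AOM PN libraries, from 42 Mt3 and 12 Mt4 UMIs in all, and 1.48, 0.93 and 0.93 in Apc ICI libraries. In Apc ICI library 2 the ratio was 1.28 in haemoglobin-rich barcodes and 1.44 in B cells, above that of its epithelium. After thinning to 1000 UMIs, 0.097% of AOM PN neutrophils and 3.63 ± 1.20% of Apc ICI neutrophils held a Mt3 UMI, beside 45.4% of Apc ICI epithelial cells. Haemoglobin-rich barcodes held more than neutrophils relative to epithelium, with Mt3 at 10.0, 19.6 and 14.8% and Mt4 at 8.89, 11.4 and 15.8% of the epithelial level in Apc ICI libraries, where the 7 transcripts had medians of 9.58, 15.9 and 14.0%.

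**Figure D4:**
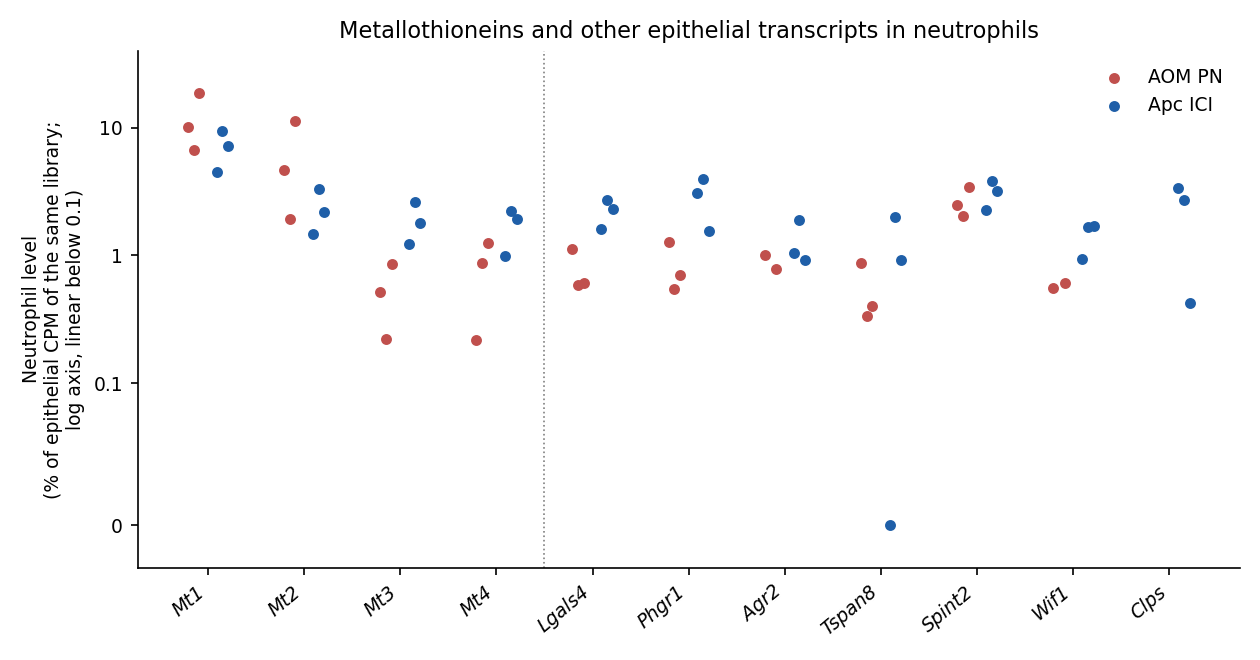
Level in neutrophils as a percent of the level in epithelial cells of the same library, for the 4 metallothioneins and for epithelial transcripts outside the gate, on a log scale with 1 point per library. Mt3 and Mt4 lie between 1.00 and 2.60% in Apc ICI libraries, within the 0 to 4.00% of the other transcripts, while Mt1 lies between 4.47 and 9.48%.

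Mt1 in monocytes and macrophages was far above this size. It stood at 232, 260 and 285% of the epithelial level in AOM PN libraries and 71.6, 126 and 149% in Apc ICI libraries. The outside-gate medians there were 0.643, 0.258 and 0.298% in AOM PN and 0.938, 1.45 and 1.26% in Apc ICI. Ordered by mean, Mt1 in AOM PN was at 1916 ± 1581 CPM in mast cells, 979 ± 148 in monocytes and macrophages and 382 ± 81.8 in epithelial cells (SD, n = 3 each). It was at 269 ± 4.31 in dendritic cells, 259 ± 148 in haemoglobin-rich barcodes and 200 in plasma cells of 2 libraries. The lowest were 73.7 ± 18.7 in T/NK cells, 45.5 ± 23.3 in neutrophils and 24.3 ± 18.8 CPM in B cells. Mast cells overlapped with monocytes and macrophages within their spread. Dendritic cells overlapped with haemoglobin-rich barcodes and these with plasma cells, and T/NK cells overlapped with neutrophils and these with B cells. Of neighbours in this order, monocytes and macrophages exceeded epithelial cells, epithelial cells exceeded dendritic cells and plasma cells exceeded T/NK cells by more than the spread. Haemoglobin-rich barcodes, with 293, 96.6 and 388 CPM, also overlapped with epithelial cells. In Apc ICI the order was monocytes and macrophages at 984 ± 170 CPM, epithelial cells at 897 ± 211, and dendritic cells of 2 libraries at 375 ± 9.50. Then came haemoglobin-rich barcodes at 273 ± 116, neutrophils at 61.2 ± 20.2, T/NK cells at 59.0 ± 5.16 and B cells at 26.3 ± 5.98. Here epithelial cells overlapped with monocytes and macrophages, unlike in AOM PN.

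Mast cells, the tissue cells of histamine and protease granules, varied between libraries. Mt1 was at 1281, 751 and 3716 CPM and Mt2 at 63.9, 49.7 and 290 CPM in AOM PN libraries 1 to 3, so library 3, which held 2424 of the mast cells, was high for both. In Apc ICI tumours only library 2 passed the minimum, with 22 cells, and held 70.8 CPM of Mt1 and 10.1 CPM of Mt2; no comparison was made. For Mt2 the epithelium led in Apc ICI, at 318 ± 111 CPM against 76.7 ± 26.8 CPM in monocytes and macrophages. In AOM PN it averaged 46.6 ± 11.8 CPM beside 50.2 ± 10.3 CPM in monocytes and macrophages (SD, n = 3 each).

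Whether Mt1 and Mt2 differed between the tumours in immune cells and in haemoglobin-rich barcodes was tested with edgeR's quasi-likelihood test on the summed counts. None of the 9 tests that the filter on low counts allowed passed an adjusted p of 0.05. The lowest, 0.101, was that of Mt2 in haemoglobin-rich barcodes. Of the 9 tests, 4 had an unadjusted edgeR p under 0.05, all of them lower in AOM PN. The share of all genes under that unadjusted cut was not counted, so nothing is read from these 4. DESeq2 also called 0 of 9 (lowest adjusted p 0.131). At an edgeR adjusted p under 0.05, 9.31% of all genes were called in neutrophils and 3.47% in monocytes and macrophages. The share was 0.398% in dendritic cells, 5.09% in T/NK cells and 2.21% in haemoglobin-rich barcodes. In monocytes and macrophages Mt1 was at 1094, 812 and 1030 CPM in AOM PN libraries, against 796, 1127 and 1028 CPM in Apc ICI libraries. Its log2 difference was -0.0068 ± 0.17 (SE; edgeR adjusted p = 0.992), and the groups overlapped throughout. Mt2 in the same cells was at 60.1, 39.6 and 51.0 CPM in AOM PN libraries, against 56.0, 107 and 67.1 CPM in Apc ICI libraries, a log2 difference of -0.62 ± 0.25 (SE; edgeR adjusted p = 0.179).

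In neutrophils Mt1 was at 48.1, 20.97 and 67.5 CPM in AOM PN libraries, against 49.7, 84.5 and 49.3 CPM in Apc ICI libraries (log2 difference -0.44 ± 0.38 SE; edgeR adjusted p = 0.479). Mt2 in neutrophils was at 2.67, 0.653 and 5.50 CPM in AOM PN libraries and 6.52, 9.44 and 5.02 CPM in Apc ICI libraries, with overlapping groups and a log2 difference of -1.35 ± 0.57 (SE; edgeR adjusted p = 0.160). The neutrophil Mt2 level was 1.48, 3.34 and 2.19% of the epithelial level in Apc ICI libraries, near the median of the epithelial transcripts given above. In AOM PN library 1 it was 4.69%, above the highest of those transcripts, 2.48%. In AOM PN libraries 2 and 3 neutrophils held 0.653 and 5.50 CPM of Mt2, beside 33.8 and 48.9 CPM in epithelium. The highest of those transcripts there were at 2.03 and 3.45%. Relative to epithelium, Mt2 lay well above that highest in AOM PN library 3 and slightly below it in AOM PN library 2. The part of such transcripts in the neutrophil difference was not tested. In T/NK cells the log2 difference was 0.33 ± 0.18 for Mt1 (SE; edgeR adjusted p = 0.301) and -0.61 ± 0.39 for Mt2 (edgeR adjusted p = 0.368). In dendritic cells, with 3 AOM PN and 2 Apc ICI libraries, it was -0.48 ± 0.15 for Mt1 (SE; edgeR adjusted p = 0.167). In haemoglobin-rich barcodes it was -0.12 ± 0.50 for Mt1 (edgeR adjusted p = 0.933) and -1.35 ± 0.42 for Mt2 (edgeR adjusted p = 0.101), where Mt2 did not overlap between the groups. There Mt2 was at 30.2, 14.0 and 9.46 CPM in AOM PN, beside 57.0, 33.8 and 48.9 CPM in epithelium. In Apc ICI it was at 41.8, 66.1 and 53.3 CPM, beside 441, 283 and 229 CPM in epithelium. Epithelial transcripts outside the gate had medians in these barcodes of 10.2, 4.10 and 3.89% of epithelium in AOM PN. In Apc ICI the medians were 9.58, 15.9 and 14.0%. The part of these transcripts was not tested. A p above the threshold does not show equal levels.

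**Figure D5:**
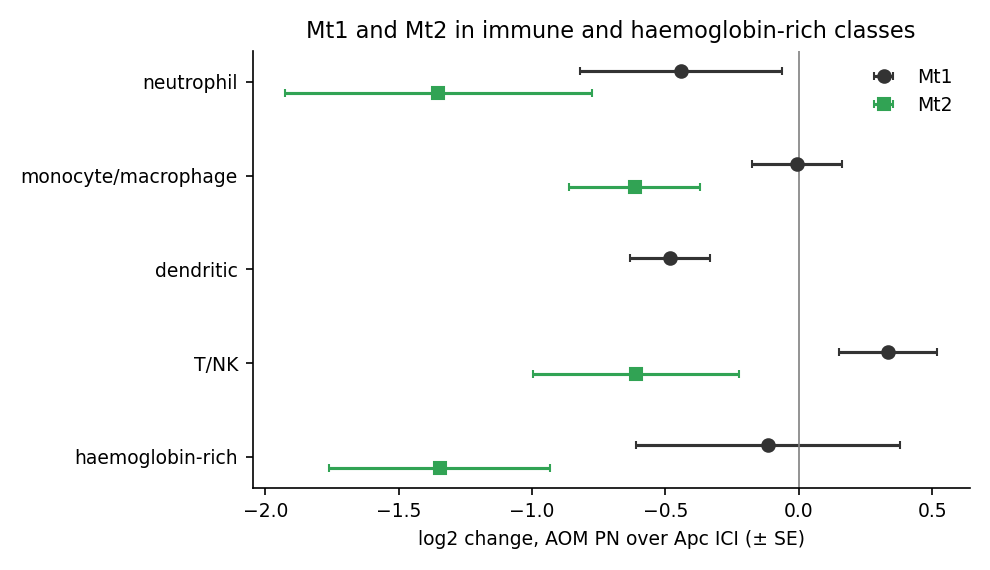
Log2 difference, AOM PN over Apc ICI, of Mt1 and Mt2 in the tested immune and haemoglobin-rich classes, with the standard error of the fit as bars. The values run from -1.35 to 0.33. Epithelial values got no test and are not drawn.

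Macrophages with C1q transcripts, the complement genes of tissue-resident macrophages, held 1195 ± 99.3 CPM of Mt1 in AOM PN and 1359 ± 153 CPM in Apc ICI. Those with Arg1, the arginase of alternatively activated macrophages, held 1165 ± 116 CPM in AOM PN and 1331 ± 435 in Apc ICI. Cells of neither gate held 510 ± 194 CPM in AOM PN and 359 ± 33.7 in Apc ICI (SD, n = 3 each), below both gated subsets of the same library in all 6 libraries. Mt2 was likewise lowest in cells of neither gate in the group means, with 66.4 ± 5.07 CPM in C1q cells, 79.2 ± 14.9 in Arg1 cells and 14.1 ± 13.8 in cells of neither in AOM PN. In Apc ICI it was at 114 ± 13.2 CPM in C1q cells, 105 ± 66.2 in Arg1 cells and 12.0 ± 2.76 in cells of neither. Among T/NK cells, those with Foxp3, the factor of regulatory T cells, held 110, 192 and 163 CPM of Mt1 in AOM PN libraries and 82.0 and 107 in the 2 Apc ICI libraries with enough cells. Gamma-delta T cells held 36.98, 18.3 and 64.2 CPM in AOM PN libraries and 53.2, 97.5 and 131 in Apc ICI libraries.

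Over 47 sums of library and class, the genes most like each member in level were named by Pearson's r of log2(CPM + 1) among 9679 genes; these sums share libraries and classes, so r is a description. Mt1 was closest to Mt2 (r = 0.874). It was then closest to Slc7a8 (0.841), a neutral amino acid transporter, Stx3 (0.838), a syntaxin of membrane fusion, Tmbim1 (0.811) and Rnf180 (0.809), a ubiquitin ligase. Mt2 was closest to Mt1, then to Pdgfa (0.858), a growth factor, Fblim1 (0.852), Ptgr1 (0.850), a prostaglandin reductase, and Hacd1 (0.819). Mt3 was closest to Mt4 (0.972), then to Wif1 (0.957), a secreted Wnt inhibitor, Ptn (0.930), the growth factor pleiotrophin, Krt23 (0.929), a keratin, and Mgp (0.920), matrix Gla protein. Mt4 was closest to Mt3, then to Wif1 (0.954), Krt23 (0.934), and the goblet cell products Spink4 (0.931) and Itln1 (0.915). Across the pairs, r was 0.227 between Mt1 and Mt3 and 0.186 between Mt1 and Mt4, 0.572 between Mt2 and Mt3 and 0.532 between Mt2 and Mt4. Wif1 was at 53.1 ± 38.4 CPM in AOM PN and 615 ± 138 CPM in Apc ICI epithelium (SD, n = 3 each). In thinned Apc ICI epithelial cells it was seen in 52.9, 42.1 and 37% of cells with 3 or more Mt3 and Mt4 UMIs, against 15.8, 15.2 and 14.1% of cells with none.

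Of 22 zinc handling genes, the transporters and the sensor Mtf1, 20 were tested in epithelium. In AOM PN 4 rose and 3 fell, shares near the 17.2% of all genes higher and 15.2% lower, and 13 did not pass, Mtf1 among them. The list had a median log2 difference of 0.056 beside 0.019 over all genes tested. Slc30a2, a zinc exporter into vesicles, fell, with 17.2 ± 6.82 CPM in AOM PN and 114 ± 8.64 CPM in Apc ICI (log2 difference -2.75 ± 0.26 SE; edgeR adjusted p = 0.00016). Slc39a5, a zinc importer, rose, with 12.5 ± 9.55 CPM in AOM PN and 0.897 ± 0.444 CPM in Apc ICI (log2 difference 3.84 ± 0.59 SE; edgeR adjusted p = 0.0015). Among further importers, Slc39a1 and Slc39a11 rose and Slc39a6 and Slc39a14 fell, with log2 differences from -1.26 to 0.90. The call of Slc39a1 was lost with cells thinned to 1000 UMIs, and those of Slc39a11 and Slc39a14 when some single libraries were left out. Slc39a11 also lost its call with at most 10% mitochondrial UMIs, and Slc39a14 with DESeq2 and with the replicate block. In neutrophils 1 of 14 tested rose and none fell (3.26% of all genes rose), and in monocytes and macrophages 1 of 17 rose and none fell (1.51% of all genes rose). It was Slc39a1 in both. In neutrophils it was at 34.1 ± 7.67 CPM in AOM PN and 13.4 ± 4.10 CPM in Apc ICI (log2 difference 1.34 ± 0.26 SE; edgeR adjusted p = 0.014). In monocytes and macrophages it was at 108 ± 14.2 CPM in AOM PN and 47.0 ± 3.98 CPM in Apc ICI (1.19 ± 0.14 SE; edgeR adjusted p = 0.0063). Without Apc ICI library 2 the edgeR adjusted p was 0.076 in neutrophils and 0.051 in monocytes and macrophages.

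Of 10 copper handling genes, 9 were tested in epithelium; 3 rose and 2 fell in AOM PN, beside 17.2% of all genes higher and 15.2% lower. Their median log2 difference was -0.0044, beside 0.019 over all genes tested. Steap4, a metalloreductase of copper and iron, rose, with 19.2 ± 3.99 CPM in AOM PN and 4.37 ± 0.980 CPM in Apc ICI (log2 difference 2.11 ± 0.25 SE; edgeR adjusted p = 0.00039). The importer Slc31a1 (0.59 ± 0.13 SE) and Sod1 (0.67 ± 0.13 SE), the copper-zinc superoxide dismutase, rose, while Ccs (-0.79 ± 0.16 SE), its copper chaperone, and Commd1 (-0.66 ± 0.14 SE), a factor in copper export, fell. The calls of Sod1 and Slc31a1 were lost with cells thinned to 1000 UMIs, and that of Slc31a1 without Apc ICI library 3. In neutrophils Slc31a2 fell, 1 of 9 tested against 6.05% of all genes lower, with 34.0 ± 3.87 CPM in AOM PN and 99.0 ± 15.4 CPM in Apc ICI (log2 difference -1.54 ± 0.19 SE; edgeR adjusted p = 0.0017). In monocytes and macrophages Sod1 rose (0.66 ± 0.12 SE), 1 of 8 tested, beside 1.51% of all genes higher, and none fell, beside 1.95% lower; the call was lost in 6 alternatives.

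Glucocorticoid-responsive genes, which share an inducer with Mt1 and Mt2, were counted in the same fits. Of 8, 7 were tested, 4 rose in AOM PN and none fell, beside 17.2% of all genes higher. Their median log2 difference was 0.74 beside 0.019 over all genes tested. Fkbp5, a chaperone of the glucocorticoid receptor, was at 8.95 ± 4.19 CPM in AOM PN and 2.08 ± 0.487 CPM in Apc ICI (log2 difference 2.20 ± 0.39 SE; edgeR adjusted p = 0.0028). Dusp1, a MAP kinase phosphatase, was at 430 ± 31.9 CPM in AOM PN and 220.3 ± 37.1 CPM in Apc ICI (0.96 ± 0.16 SE; edgeR adjusted p = 0.0024). Errfi1, an inhibitor of the EGF receptor, and Klf9, a transcription factor, rose by log2 0.88 ± 0.18 and 0.74 ± 0.18 (SE), the call of Klf9 being lost without Apc ICI library 2 or 3. In neutrophils none of the 8 tested passed with edgeR or with DESeq2, beside 9.31% of all genes called by edgeR. At an unadjusted edgeR p under 0.05, 1 was higher and 2 were lower in AOM PN. The share of all genes at that cut was not counted. In monocytes and macrophages 1 of 8 rose, beside 1.51% of all genes. This was Sgk1, a kinase, with 392 ± 39.4 CPM in AOM PN and 225 ± 44.1 CPM in Apc ICI (0.80 ± 0.16 SE; edgeR adjusted p = 0.035). Its call was lost in 6 alternatives.

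Of the annotated neighbours of the gene cluster, 3 were tested in epithelium and 1 was called, beside 17.2% of all genes higher and 15.2% lower. Bbs2, a gene of the ciliary BBSome upstream of Mt4, was at 4.03 ± 1.85 CPM in AOM PN and 7.88 ± 0.822 CPM in Apc ICI (log2 difference -1.10 ± 0.32 SE; edgeR adjusted p = 0.031). Ogfod1, upstream of Bbs2, was at 9.27 ± 2.21 CPM in AOM PN and 6.38 ± 1.03 CPM in Apc ICI (0.55 ± 0.25 SE; edgeR adjusted p = 0.12). Nup93, a nuclear pore gene downstream of Mt1, was at 11.9 ± 3.37 CPM in AOM PN and 14.8 ± 0.93 CPM in Apc ICI (-0.27 ± 0.21 SE; edgeR adjusted p = 0.38). No stretch of 50 bases of a metallothionein transcript occurred in a transcript of another gene in the annotation used. The antisense gene Gm45774 overlaps Mt2 and held 78 UMIs, against 22918 of Mt2, over all sums; whether counting used the strand is not given in the sources used here.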

How the data were processed

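The authors deposited UMI counts per gene and barcode, 1 matrix per library, made with Cell Ranger 6.1.2 on mm10, per the submitters' processing notes; the annotation release and strand setting are not given in the sources used here. The 6 matrices hold 31053 genes, every value column was used (0 left out), and every barcode had at least 500 UMIs. The members and the gene lists were chosen with earlier results of these data known.

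A barcode entered with 200 or more genes if its mitochondrial share did not exceed 20%. Doublets were ranked by simulated neighbours in a script written for this work, at a rate of 0.8% per 1000 barcodes, and removed (4.00 to 10.2% of a library). Barcodes with at least 50% haemoglobin UMIs were called haemoglobin-rich. A class needed 3 UMIs from 2 of its markers and no rival above 20% of them; the others were left out as mixed. Each sum had at least 20 cells. Counts without haemoglobin genes were fitted across all genes with edgeR 4.0.16 (R 4.3.3; TMM, filterByExpr, quasi-likelihood F test, group as the only term, Benjamini-Hochberg, 0.05), after tests on simulated data; DESeq2 1.42.0 was an alternative. Shares of cells used cells thinned to 1000 UMIs. CPM are per effective library size. Members in epithelium, and Mt3 and Mt4 anywhere, got no test. Named genes were the 4 members, called list genes (at most 6 per list and class, by p), the 5 genes most like each member (mean of at least 5 CPM) and the 3 genes on each side of the cluster. Of the neighbours, Gm39228 had 0 UMIs in AOM PN and 5 in Apc ICI epithelium; Gm39226, Gm39227 and Rpl10-ps5 were not analysed here. Alternatives covered scaling, filters, gates, depth, doublets, haemoglobin, a replicate block and each library left out.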

Additional observations from a re-analysis of the deposited data

How the results depend on the processing

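Leaving out each library in turn moved the epithelial log2 difference, AOM PN over Apc ICI, of Mt3 between -4.32 and -2.75 and of Mt4 between -5.44 and -3.53, with the direction unchanged; the lowest values are those without AOM PN library 1. In those fits Mt1 ran from -0.13 to 0.12 in monocytes and macrophages, from -0.48 to 0.27 in haemoglobin-rich barcodes, from -0.83 to -0.077 in neutrophils and from 0.094 to 0.44 in T/NK cells, and Mt2 from -2.26 to -0.79 in neutrophils, from -0.79 to -0.28 in monocytes and macrophages, from -0.94 to -0.27 in T/NK cells and from -2.05 to -1.06 in haemoglobin-rich barcodes. No Mt1 or Mt2 result in these classes passed the threshold in a fit without 1 library. With a dendritic arm of 1 library, that library was assumed to vary like the others. Mt1 in monocytes and macrophages turned positive with DESeq2's size factors (0.015), with the DESeq2 test (0.015) and with no filter on low counts (0.040), and Mt1 in haemoglobin-rich barcodes with doublets kept (0.32); the cause was not tested. Mt2 passed the threshold in neutrophils with no filter (-1.31, edgeR adjusted p = 0.0012, where that result's alternatives gave 0.0012 to 0.45) and in monocytes and macrophages with cells thinned to 1000 UMIs (-1.14, edgeR adjusted p = 0.026, where its alternatives gave 0.026 to 0.53). Same-numbered libraries' deviations correlated at -0.091, 0.057 and -0.14 in epithelium, and differently numbered ones at -0.13 to 0.18. These values show no pairing by number, but with 3 libraries a group they cannot exclude it. The replicate block gave -3.58 for Mt3 and -4.57 for Mt4 in epithelium.

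With cells thinned to 1000 UMIs, 8 zinc genes were left in epithelium, of which 0 were higher and 1 lower in AOM PN, and of 7 copper genes 0 were higher; in monocytes and macrophages 0 copper genes were higher. With no filter, zinc genes gave 2 lower in neutrophils and 2 higher in monocytes and macrophages, copper genes 1 higher and 2 lower in neutrophils and 2 higher in monocytes and macrophages, and glucocorticoid-responsive genes 1 higher and 1 lower in neutrophils and 2 higher and 2 lower in monocytes and macrophages. The replicate block left 0 copper and 0 glucocorticoid-responsive genes higher in monocytes and macrophages, and DESeq2 gave 2 of the second. Without single libraries, the counts ran in epithelium from 2 to 5 zinc genes higher and 2 to 3 lower, 2 to 3 copper genes higher and 2 to 3 lower, and 3 to 5 glucocorticoid-responsive genes higher; in neutrophils from 0 to 1 zinc genes higher, 0 to 1 copper genes higher and 1 to 2 lower; and in monocytes and macrophages from 0 to 1 zinc, 0 to 2 copper and 0 to 2 glucocorticoid-responsive genes higher, with 0 to 1 of the last lower. Shares of cells with a UMI depend on the depth they are thinned to: Mt3 was seen in 35% of Apc ICI epithelial cells at 500 UMIs and in 54.6% at 2000 UMIs. Traces near 1 CPM in AOM PN immune cells rest on few UMIs, such as 26 of Mt3 in neutrophils.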
